A study of Mus musculus with 2 samples.

Results

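Mitotic genes are described here as 35 listed genes, found by symbol among the 31053 rows of the feature tables, each of which matched exactly 1 row. They were followed through single mammary gland cells in 2 libraries made with the 10x Genomics 3′ kit, V3 chemistry: the Fgd5-ko-labelled library, whose title carries the word cko, and the WT-labelled library. Both came from C57BL/6 mice and from cells sorted as CD24high CD29+, a gate that enriches basal cells of the mammary gland. The labels give neither the deleted part of Fgd5, nor the cells in which it was deleted, nor how many mice were used, and they leave the P4 in their titles unexplained. With 1 library per group there is no replicate and no test, and every interval below is an exact 95% interval that covers counting error only.

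Cells pass from DNA replication into mitosis through the rise of cyclin A and cyclin B bound to CDK1, then condense their chromosomes, build a spindle, attach chromosomes to it and split. Most of the genes are transcribed in G2 and mitosis through a shared programme of the DREAM, B-MYB and FOXM1 factors, and many of the proteins are removed at mitotic exit by the anaphase-promoting complex. In the mammary gland, basal cells divide during growth of the ducts and in pregnancy, and mitotic transcripts mark those cells that are in the cycle at the time of sampling. The number of members seen together in 1 cell is therefore given beside their levels.

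The library depths differed strongly. Of 8798 barcodes with 136697801 UMIs in the Fgd5-ko-labelled library and 10735 barcodes with 60566053 UMIs in the WT-labelled library, the authors' table lists 6064 and 6588 cells, with medians of 15712 and 4954 UMIs per cell. Listed cells span 3634 to 40227 UMIs in the Fgd5-ko-labelled library and 1563 to 15288 in the WT-labelled library, and 18 barcode sequences are listed in both. Basal-like cells, named from their keratin and contractile markers in a clustering that left out the mitotic and other cell-cycle genes, make up 6029 (99.4%) and 6360 (96.5%) of the listed cells. Most of them sit in clusters 0 to 6 and 9 in the Fgd5-ko-labelled library and in clusters 10, 12, 13, 15, 16 and 17 in the WT-labelled library. Fgd5 goes against its label: it had 419 UMIs, 4.05 CPM (3.67 to 4.46), in basal-like cells of the Fgd5-ko-labelled library, against 30 UMIs, 0.840 CPM (0.567 to 1.20), in the WT-labelled library. A 3′ tag outside the deleted part would not check the deletion. The groups are therefore called by their labels throughout.

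Promoters of the members share short elements. In the RefSeq table of the GRCm38.p6 build, which holds windows of 250 bases before to 50 after the start, 30 of the 35 members have a window; Tpx2, Kif20a, Ccna2, Aurkb and Smc4 were not matched. The CHR element, searched as TTTGAA and its reverse complement TTCAAA, lies in the windows of 24 of the 30 members (80%), against 5466 of 27025 genes (20.2%). The CCAAT box, searched as CCAAT and ATTGG, lies in 26 of the 30 (86.7%), against 41.1% of all genes. Both occur in 22 of the 30 members (73.3%), against 7.97% of all genes. Counted over the 250 bases before the start alone, the CHR element is found in 13 of the 30 members (43.3%), against 18.3% of all genes, and the other matches lie wholly or partly after the start. A match is a description of letters, not a bound site. From 7 of the windows are shown as 150 bases directly before the start, read 5′ to 3′ on the strand of the gene, with both elements in capitals. Top2a, Cdk1, Ube2c, Mki67 and Cdc20 hold both elements there, while Cks2 and Cenpe hold CCAAT boxes with no CHR match in the stretch. In none of the 7 stretches do the elements share a base.
Top2a, chr11:99024190-99024339, minus strand: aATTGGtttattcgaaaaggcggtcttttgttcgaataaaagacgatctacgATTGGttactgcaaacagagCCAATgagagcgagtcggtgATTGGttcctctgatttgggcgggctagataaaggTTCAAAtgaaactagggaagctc
Cdk1, chr10:69352913-69353062, minus strand: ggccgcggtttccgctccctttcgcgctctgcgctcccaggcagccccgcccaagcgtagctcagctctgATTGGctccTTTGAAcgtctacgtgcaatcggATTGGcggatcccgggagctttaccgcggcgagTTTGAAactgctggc
Ube2c, chr2:164769779-164769928, plus strand: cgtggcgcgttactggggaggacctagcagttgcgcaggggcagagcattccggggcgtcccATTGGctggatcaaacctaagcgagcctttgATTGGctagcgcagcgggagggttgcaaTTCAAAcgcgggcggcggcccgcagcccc
Mki67, chr7:135716380-135716529, minus strand: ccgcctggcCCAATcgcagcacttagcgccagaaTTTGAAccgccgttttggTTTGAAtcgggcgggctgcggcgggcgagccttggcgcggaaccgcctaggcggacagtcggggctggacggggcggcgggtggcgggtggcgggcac
Cdc20, chr4:118437344-118437493, minus strand: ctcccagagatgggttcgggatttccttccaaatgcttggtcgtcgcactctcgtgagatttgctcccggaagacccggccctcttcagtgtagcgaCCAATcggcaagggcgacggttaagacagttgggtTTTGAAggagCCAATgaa
Cks2, chr13:51645082-51645231, plus strand: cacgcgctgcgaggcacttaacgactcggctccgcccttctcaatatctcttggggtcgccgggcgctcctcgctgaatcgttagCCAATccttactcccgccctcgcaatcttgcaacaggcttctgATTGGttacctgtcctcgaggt
Cenpe, chr3:135212413-135212562, plus strand: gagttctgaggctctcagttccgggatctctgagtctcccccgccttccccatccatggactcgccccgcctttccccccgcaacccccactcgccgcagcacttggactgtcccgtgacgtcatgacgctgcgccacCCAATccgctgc

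**Figure D1:**
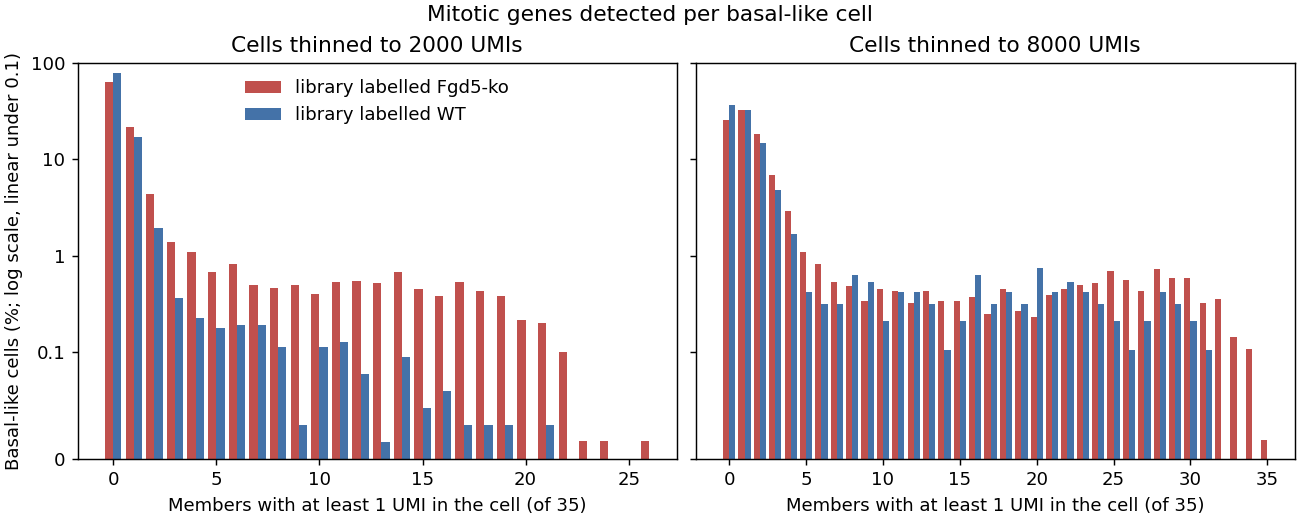
The x axis is the number of members with at least 1 UMI in a basal-like cell and the y axis the percentage of cells (log scale, linear under 0.1), after thinning each cell to 2000 UMIs (left) or 8000 UMIs (right). Bars of the Fgd5-ko-labelled library stand left of those of the WT-labelled library; at 8000 UMIs a flat shelf from about 10 members upward holds 10.3% and 7.39% of the cells.

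Within single cells the mitotic genes came as a block. With every basal-like cell thinned at random to 2000 UMIs, 63.3% of 6029 cells in the Fgd5-ko-labelled library and 79.0% of 6299 in the WT-labelled library held none of the 35, and 25.9% and 19.1% held 1 or 2. At least 3 were held by 654 cells (10.8%, 10.1 to 11.7) in the Fgd5-ko-labelled library and by 123 cells (1.95%, 1.63 to 2.33) in the WT-labelled library, with 61 shallower cells left out of the second. At least 10 were held by 5.41% and 0.667%. The most seen in any cell was 26 members in the Fgd5-ko-labelled library and 21 in the WT-labelled library. Cells with 10 to 19 members carried 54.7% of all member UMIs at this depth in the Fgd5-ko-labelled library and 29.3% in the WT-labelled library. The cells with 1 or 2 members carried 16.4% and 50.6%.

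A deeper common depth separated the cells more clearly. At 8000 UMIs, which 5604 cells in the Fgd5-ko-labelled library and 947 in the WT-labelled library reached, 575 (10.3%, 9.48 to 11.1) and 70 (7.39%, 5.81 to 9.25) held 10 or more members. Cells with 5 to 9 members were few, 3.27% in the Fgd5-ko-labelled library and 2.22% in the WT-labelled library. Those with 20 or more made up 6.62% and 4.01% and carried 69.1% and 57.1% of the member UMIs. The highest count was all 35 members in the Fgd5-ko-labelled library and 31 in the WT-labelled library. The 947 cells of the WT-labelled library are its deepest, whereas 8000 UMIs left out only 425 cells of the Fgd5-ko-labelled library, so these shares cover unlike parts of the libraries. The figure of members per cell shows the shelf at both depths.

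Top2a, the topoisomerase that untangles sister chromatids, shows the coupling. At 2000 UMIs, 337 of 388 Top2a cells (86.9%, 83.1 to 90.1) in the Fgd5-ko-labelled library held another member, against 32.4% of cells with no Top2a UMI. In the WT-labelled library this was 50 of 74 (67.6%, 55.7 to 78.0), against 20.1%. Among cells of 4000 to 12000 UMIs before thinning, the shares of Top2a cells with another member were 14 of 24 (58.3%, 36.6 to 77.9) and 30 of 48 (62.5%, 47.4 to 76.0). These intervals overlap. Hmmr, a spindle-binding protein, was accompanied more often: 223 of 228 Hmmr cells (97.8%) and 37 of 37 (100%, 90.5 to 100) held another member. Cenpf, a kinetochore-linked protein that accumulates in G2, was accompanied in 93.7% of 380 cells and 86.8% of 68. For all 1190 ordered pairs in the Fgd5-ko-labelled library, and for 1168 of 1190 in the WT-labelled library, the partner was found in a larger share of cells with the first gene than of cells without it. The median share of cells with the partner was 28.7% with the first gene present and 2.07% without it in the Fgd5-ko-labelled library, and 16.7% and 0.414% in the WT-labelled library. Pairs of other genes were not counted, so no share over all genes stands beside these values.

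The 4 members found least often with others were the same in both libraries. Smc4, a condensin ATPase, was accompanied in 53.9% of 932 cells (50.6 to 57.1) in the Fgd5-ko-labelled library and 26.4% of 341 (21.8 to 31.4) in the WT-labelled library. Cks2, the small subunit that binds CDK1, was accompanied in 63.5% of 740 cells and 25.8% of 520. Smc2, the partner of Smc4 in condensin, gave 69.2% of 426 and 37.3% of 150, and Ncapd2, a regulatory condensin subunit, 72.1% of 122 and 38.9% of 54. In the Fgd5-ko-labelled library the next lowest was Top2a, and in the WT-labelled library the next lowest were Cenpa, the centromeric histone variant, at 53.7% of 147, and Prc1, the microtubule bundler of the spindle midzone, at 55.4% of 65. Leaving these 4 genes out of the count, 9.70% of cells in the Fgd5-ko-labelled library and 1.71% in the WT-labelled library held 3 or more members.

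**Figure D2:**
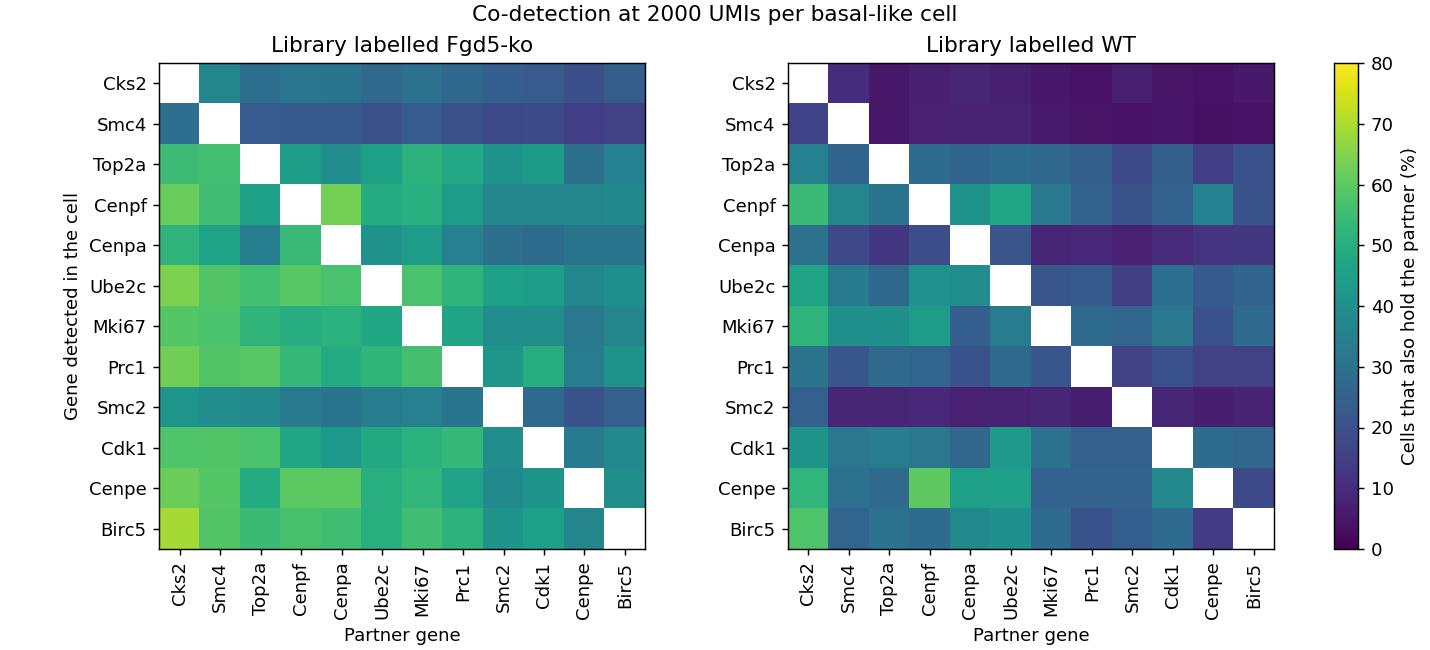
Each square gives the percentage of basal-like cells with the row gene that also held the column gene at 2000 UMIs per cell, for the 12 members with the most UMIs, in the Fgd5-ko-labelled library (left) and the WT-labelled library (right). The rows of Smc4, Cks2 and Smc2 are darker than the others; Smc4 cells held another member in 53.9% and 26.4%.

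Summed over all basal-like cells, every member was more than 1.5-fold higher in the Fgd5-ko-labelled library: 35 of 35, where 26.9% of 15060 genes with 20 UMIs or more were higher by that margin. Their median log2 ratio of CPM was 2.53, against 0.23 for all genes, and their summed level was 1354 CPM in the Fgd5-ko-labelled library and 293.8 CPM in the WT-labelled library. With every cell thinned to 2000 UMIs, 35 of 35 were higher (24.7% of 12584 genes, while 9.08% were lower), with a median of 2.48. At 8000 UMIs, reached by 5604 cells in the Fgd5-ko-labelled library and 947 in the WT-labelled library, 22 were higher (26.7% of 13630 genes), 0 were lower (9.26%) and 13 lay between, with a median of 0.76 and summed levels of 1023 and 642.2 CPM.

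Among cells of like depth before thinning, the direction depended on the range. At 4000 to 6000 UMIs the members summed to 366.0 CPM in the Fgd5-ko-labelled library and 119.3 CPM in the WT-labelled library, and at 6000 to 8000 UMIs to 170.9 and 195.8 CPM. Among basal-like cells with 8000 to 12000 UMIs, 1164 in the Fgd5-ko-labelled library and 735 in the WT-labelled library, 25 members were lower by at least 1.5-fold in the Fgd5-ko-labelled library (11.4% of 12166 genes were), 0 were higher (24.5% of genes were) and 10 lay between. The summed level was 338.0 CPM in the Fgd5-ko-labelled library and 605.1 CPM in the WT-labelled library, and the median log2 ratio was -0.97, against 0.18 for all genes. Among cells with 12000 to 16000 UMIs, 1509 and 212, 31 were lower (12.9% of 12495 genes), 0 higher (25.2%), with summed levels of 380.8 and 833.3 CPM and a median of -1.14, against 0.14 for all genes. Over the wider range of 4000 to 12000 UMIs, 1572 and 4454 cells, 9 members were higher (23.7% of 13225 genes), 1 was lower (10.8%) and 25 lay between. Of those 35 intervals, 13 lay above 0, 5 below and 17 included 0. Members tended to be found in the same cells, so they are not independent of each other. Many members moving together, in these ranges or over all basal-like cells, are therefore not as many separate results. The shares of all genes do not measure how unusual such counts are. The intervals treat UMIs as independent and do not cover the gathering of member UMIs in cells that held many members.

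**Figure D3:**
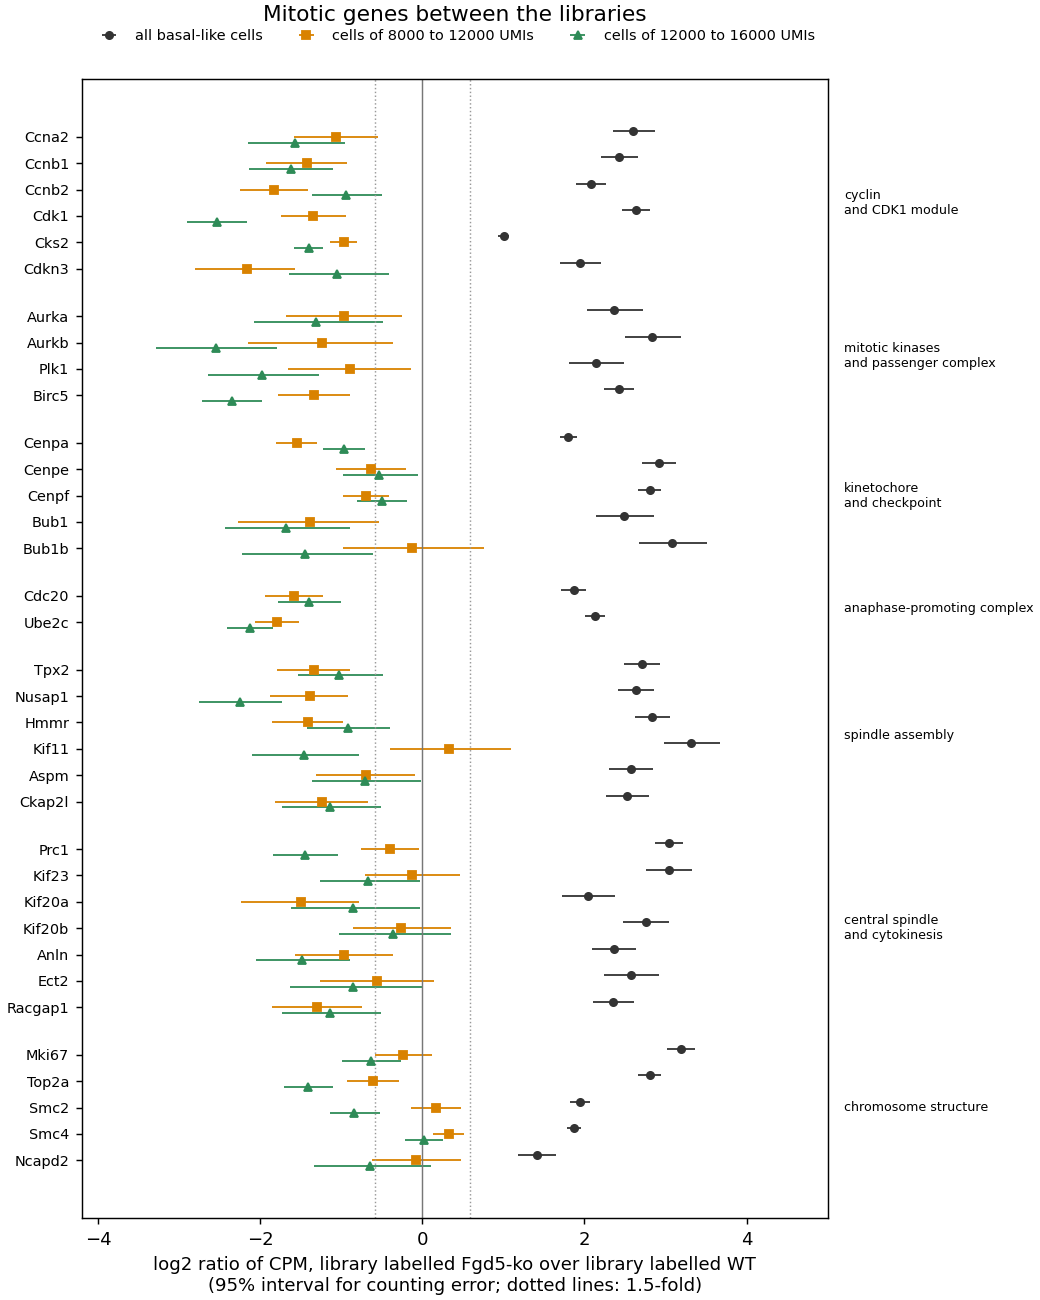
Points give the log2 ratio of CPM, the Fgd5-ko-labelled library over the WT-labelled library, for each of the 35 members grouped by role, with 95% intervals for counting error and dotted lines at 1.5-fold. Over all basal-like cells every point lies right of the upper dotted line, while among cells of 8000 to 12000 and 12000 to 16000 UMIs 25 and 31 members lie left of the lower one.

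Cyclins and their kinase are given first. The 6 genes of the cyclin and CDK1 module summed to 265.5 CPM in the Fgd5-ko-labelled library and 87.8 CPM in the WT-labelled library over all basal-like cells, but to 71.8 and 165.3 CPM among cells of 8000 to 12000 UMIs, where all 6 were lower. Cks2 had 119.9 CPM in the Fgd5-ko-labelled library and 59.8 CPM in the WT-labelled library over all cells, and 45.7 and 89.5 CPM in that range. Its log2 ratio over all cells, with an interval of 0.94 to 1.07, was the smallest of the 35. Cdk1, the kinase that drives entry into mitosis, had 51.5 and 8.32 CPM over all cells, and 7.39 and 18.7 CPM in the range. Ccnb2, a B-type cyclin, had 31.0 and 7.34 CPM, and then 6.04 and 21.4 CPM. Ccnb1, the other B-type cyclin, and Ccna2, the A-type cyclin, had log2 ratios of 2.43 and 2.60 over all cells, and of -1.42 and -1.06 in the range. Cdkn3, a phosphatase that acts on CDKs, had the lowest ratio of the range, with 15.5 and 4.01 CPM over all cells and 2.69 and 12.1 CPM in the range, a log2 ratio of -2.17 (-2.80 to -1.57) in the range. At 12000 to 16000 UMIs the lowest of these 6 was Cdk1, at 6.79 and 39.2 CPM.

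The anaphase-promoting complex pair behaved alike. Ube2c, its ubiquitin-conjugating enzyme, had 73.9 CPM in the Fgd5-ko-labelled library and 16.9 CPM in the WT-labelled library over all basal-like cells, and 14.1 and 48.7 CPM among cells of 8000 to 12000 UMIs. Cdc20, its mitotic activator, had 36.8 and 10.1 CPM, and then 8.90 and 26.6 CPM. Among the 4 genes of the mitotic kinases and the passenger complex, Birc5, which targets that complex to the centromere and midzone, had 39.8 and 7.42 CPM over all cells, and 6.21 and 15.6 CPM in the range. The kinases Aurka and Plk1, which act at the spindle poles and at mitotic entry, and Aurkb of the passenger complex had log2 ratios of 2.14 to 2.84 over all cells, and all 4 genes were lower in both ranges.

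Kinetochore genes differed among themselves. Cenpa had 75.1 CPM in the Fgd5-ko-labelled library and 21.5 CPM in the WT-labelled library over all cells, and 17.9 and 52.4 CPM among cells of 8000 to 12000 UMIs, a log2 ratio of -1.55 (-1.80 to -1.30). Cenpf had 82.5 and 11.8 CPM, and then 18.0 and 29.3 CPM, a smaller difference of -0.70 (-0.98 to -0.41). Cenpe, the kinetochore motor, had 40.7 and 5.41 CPM, and then 8.06 and 12.5 CPM. Bub1b, a checkpoint protein, was at 2.60 and 2.84 CPM with an interval that includes 0 there, but at 2.47 and 6.72 CPM among cells of 12000 to 16000 UMIs. The checkpoint kinase Bub1 was lower in both ranges, at 1.68 and 4.40 CPM in the first.

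Chromosome structure genes were nearest to equal in the 8000 to 12000 range. Among the 6 spindle assembly genes, Kif11, the motor that pushes spindle poles apart, was at 4.28 CPM in the Fgd5-ko-labelled library and 3.41 CPM in the WT-labelled library in the 8000 to 12000 range with an interval including 0, although it had the largest ratio of the 35 over all cells, 3.32 (2.98 to 3.67). It was at 3.61 and 9.90 CPM among cells of 12000 to 16000 UMIs. The other 5, Hmmr, the spindle assembly factor Tpx2, the microtubule bundler Nusap1, the pole protein Aspm and Ckap2l, were lower in both ranges. Of the 7 midzone and cytokinesis genes, 3 were lower in the first range: the motor Kif20a, the scaffold Anln, or anillin, and Racgap1, which acts with the motor Kif23 at the midzone. Kif23, Kif20b and Ect2, the exchange factor that starts furrowing, had intervals that include 0 there. Prc1 was at 12.8 and 16.9 CPM there, against 64.1 and 7.79 CPM over all cells. Among cells of 12000 to 16000 UMIs, 6 of these 7 genes were lower, with a log2 ratio of their sums of -1.06 (-1.28 to -0.84). The chromosome structure genes summed to 115.7 and 111.9 CPM in the 8000 to 12000 range, a log2 ratio of 0.05 (-0.08 to 0.18). Over all cells they summed to 349.1 and 72.9 CPM. Among cells of 12000 to 16000 UMIs they summed to 122.8 and 180.3 CPM, with 4 of 5 lower. Smc4 was the 1 member with an interval above 0 in the range, at 59.0 and 47.1 CPM. Mki67, which coats mitotic chromosomes, was at 13.8 and 16.2 CPM there, and at 74.0 and 8.10 CPM over all cells. Top2a, the 1 gene of this role that was lower by 1.5-fold, was at 14.6 and 22.3 CPM in the range, and at 83.2 and 11.9 CPM over all cells. Smc2 was at 21.8 and 19.5 CPM in the range, and at 58.7 and 15.2 CPM over all cells. Ncapd2 was at 6.46 and 6.82 CPM in the range, and at 12.6 and 4.76 CPM over all cells.

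**Figure D4:**
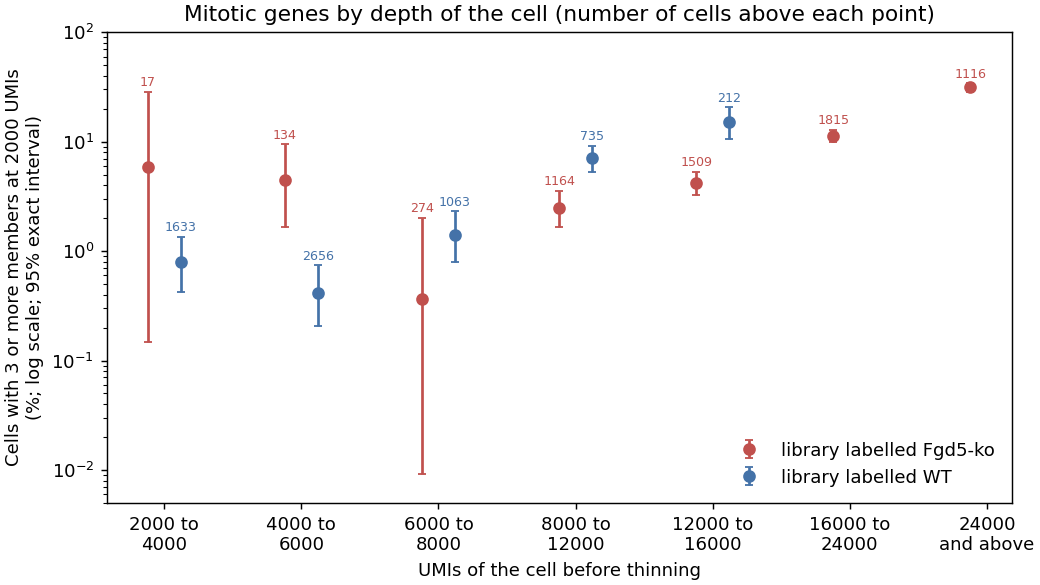
Points give the percentage of basal-like cells with 3 or more members at 2000 UMIs (log scale, 95% exact interval) in bins of the cell's UMI count before thinning, with the number of cells above each point. From 8000 to 16000 UMIs the WT-labelled library lies above the Fgd5-ko-labelled library, and 24000 UMIs and above, where only the Fgd5-ko-labelled library has cells, holds 31.3%.

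Above 8000 UMIs the share of cells with 3 or more members was larger in each deeper bin of both libraries, although each cell was thinned to the same 2000 UMIs before counting. Cells of 8000 to 12000 UMIs held 3 or more members in 2.49% (1.67 to 3.56) of the Fgd5-ko-labelled library and 7.07% (5.33 to 9.17) of the WT-labelled library. At 12000 to 16000 UMIs it was 4.18% (3.22 to 5.31) and 15.1% (10.6 to 20.6), and at 16000 to 24000 UMIs, reached only in the Fgd5-ko-labelled library, it was 11.3%. At 6000 to 8000 UMIs the shares were 1 of 274 cells (0.365%) and 15 of 1063 (1.41%), with overlapping intervals. At 2000 to 4000 UMIs they were 1 of 17 cells (5.88%, 0.149 to 28.7) and 13 of 1633 (0.796%, 0.425 to 1.36). At 4000 to 6000 UMIs the order was the other way, with 6 of 134 cells (4.48%, 1.66 to 9.49) against 11 of 2656 (0.414%, 0.207 to 0.740). Counting 10 or more members at 8000 UMIs gave the same order above 8000 UMIs: at 8000 to 12000 UMIs, 20 of 1164 cells (1.72%) against 45 of 735 (6.12%), and at 12000 to 16000 UMIs, 53 of 1509 cells (3.51%) against 25 of 212 (11.8%, 7.78 to 16.9).

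With each library cut by UMI count into 4 equal groups, the order is that of the sums over all cells. The deepest group held 3 or more members in 27.6% of 1509 cells in the Fgd5-ko-labelled library and 6.10% of 1575 in the WT-labelled library, and the shallowest group in 2.32% and 0.826%. Cells with 3 or more members had a median of 24709 UMIs before thinning in the Fgd5-ko-labelled library, against 14671 for cells with none, and of 9704 in the WT-labelled library, against 4901. The median share of mitochondrial UMIs was alike, 4.56% and 4.63% in the Fgd5-ko-labelled library and 4.99% and 4.86% in the WT-labelled library. Depth and library cannot be told apart here, because a given number of UMIs is a low rank in the Fgd5-ko-labelled library and a high rank in the WT-labelled library. No doublets were removed, and their part in cells of high UMI counts was not tested.

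The make-up of the members was compared within the cells that held many of them. Among cells with 10 or more members at 8000 UMIs, 575 and 70, the mean was 64.8 member UMIs per cell in the Fgd5-ko-labelled library and 52.6 in the WT-labelled library. Relative to WT, 12 members were higher by at least 1.5-fold in the Fgd5-ko-labelled library, where 34.4% of 10220 genes were, and 0 were lower, where 10.6% were, so the count of higher members is near that of all genes. Intervals of 17 lay above 0 and of 4 below. Mki67 had the largest ratio, 1.14 (0.87 to 1.42), followed by Kif23, a midzone motor, at 1.09 and Smc4 at 0.99. The 4 below 0 were Cdkn3 at -0.42 (-0.77 to -0.05), Ube2c at -0.35, Cdc20 at -0.33 and Cks2 at -0.28. Among cells with 3 or more members at 2000 UMIs, 654 and 123, no interval lay below 0 and these 4 had intervals that include 0, with Cdkn3 at -0.04, Ube2c at 0.14, Cdc20 at 0.01 and Cks2 at -0.13. Mki67, Kif23 and Smc4 were at 0.86, 1.29 and 0.90 there, all with intervals above 0. Cenpa was at 0.01 (-0.18 to 0.20) in the cells with 10 or more members at 8000 UMIs. It was at -0.02 (-0.31 to 0.28) in those with 3 or more at 2000 UMIs.

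Replication-dependent histones are transcribed in S phase, and their UMIs were used to divide these cells. Histone genes have near-identical copies, so that the counts of single histone genes are uncertain, and their sum was used. The sum is not a measured phase. At 2000 UMIs, cells with no member held 226.6 CPM of it in the Fgd5-ko-labelled library and 109.8 CPM in the WT-labelled library. How far the 3′ kit captures these RNAs was not tested. Of the cells with 10 or more members, 290 held 5 or more such UMIs and 155 held 0 or 1 in the Fgd5-ko-labelled library; in the WT-labelled library it was 35 and 26. In histone-high cells S-phase genes had 20.6 UMIs per cell, against 7.42 in histone-low cells, in the Fgd5-ko-labelled library, and 18.1 against 6.54 in the WT-labelled library. In the Fgd5-ko-labelled library 4 members were higher by at least 1.5-fold in histone-high cells, where 13.4% of 9484 genes were, and 9 were lower, where 8.41% were. In the WT-labelled library 6 of 34 members were higher (12.2% of 2961 genes) and 15 lower (14.3%), with Ncapd2 left out at under 20 UMIs.

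Top2a leaned to histone-high cells in both libraries, with 5.51 UMIs per cell against 2.37 in the Fgd5-ko-labelled library and 3.86 against 1.19 in the WT-labelled library. Cdk1 did too, with 2.97 against 1.62 and 2.63 against 1.31, as did Smc2, with 2.84 against 1.62 and 1.77 against 0.731. Aurkb, the kinase of the passenger complex, had the largest ratio in the Fgd5-ko-labelled library, 1.49 on the log2 scale (1.08 to 1.91). Cenpa leaned the other way, with 2.26 UMIs per histone-high cell against 5.76 per histone-low cell in the Fgd5-ko-labelled library, and 1.89 against 5.27 in the WT-labelled library. Cdc20 gave 1.30 against 2.96 and 1.20 against 4.00. Ccnb2 gave 1.16 against 2.20 and 0.743 against 2.77. Mki67 gave 4.05 against 3.25, with an interval above 0, and 1.63 against 1.77, with one that includes 0.

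**Figure D5:**
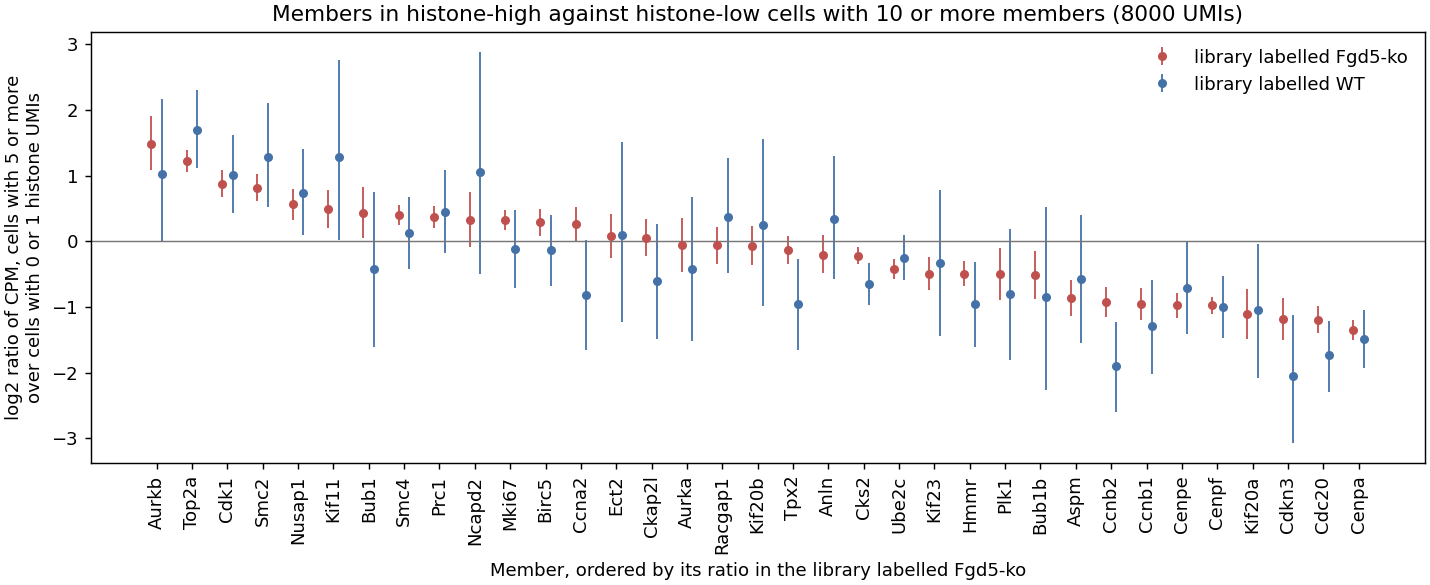
Points give, for each member, the log2 ratio of CPM in cells with 5 or more over cells with 0 or 1 histone UMIs, among basal-like cells with 10 or more members at 8000 UMIs, with 95% intervals for counting error. Aurkb, Top2a, Cdk1 and Smc2 lie highest in the Fgd5-ko-labelled library, and Cenpa, Cdc20 and Cdkn3 lowest.

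Genes outside the list were compared at 2000 UMIs between cells with 3 or more members, called cells with the block here, and cells with none. The 40 other mitotic genes summed to 2752 CPM in cells with the block against 107.3 CPM in cells without in the Fgd5-ko-labelled library, a log2 ratio of 4.68 (4.57 to 4.79), and to 2138 against 94.98 CPM in the WT-labelled library, a log2 ratio of 4.49 (4.34 to 4.65). S-phase genes summed to 1708 against 416.0 CPM and to 1264 against 351.1 CPM, and histone genes to 4445 against 226.6 CPM and to 1378 against 109.8 CPM. These lists are given as sums because many of their genes reached 20 UMIs only through the cells with the block. All 10 abundant chromatin and tubulin genes, each with 20 UMIs or more on both sides, were higher by at least 1.5-fold in both libraries, where 15.9% of 11114 and 26.4% of 10994 genes were. With 10 or more members at 8000 UMIs against none, the same 10 were higher in both libraries (16.6% of 11972 and 21.1% of 8691 genes), and 6 and 9 of 10 basal markers were lower (11.1% and 20.3%). Hmgb2, a chromatin protein abundant in dividing cells, was at 1679 CPM in cells with the block against 157.9 CPM in cells without in the Fgd5-ko-labelled library, and at 2342 against 178.4 CPM in the WT-labelled library.

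Companions were ranked by the smaller of their 2 library ratios at 2000 UMIs, and the first 12 are named. Pclaf, a partner of PCNA in replication, was first by that measure, with log2 ratios of 7.23 (6.51 to 8.05) in the Fgd5-ko-labelled library and 8.38 in the WT-labelled library. Cdca3, a trigger of mitotic entry, gave 7.02 and 7.84, and Cdca8, the passenger complex subunit borealin, 6.22 and 6.52. Spc24 and Spc25, subunits of the NDC80 complex at the kinetochore, gave 5.35 and 7.20, and 5.18 and 7.07. Tacc3, which stabilises spindle microtubules, gave 5.09 and 6.12, and Ckap2, a microtubule-binding protein, 5.71 and 5.56. The histone genes Hist1h2ap and Hist1h1b had larger ratios than Pclaf in the Fgd5-ko-labelled library, at 8.06 and 7.69, and gave 6.71 and 6.77 in the WT-labelled library. The remaining companions were the histone gene Hist1h2ae, the formin Diaph3 and Lockd. Each of the 12 held at least 20 UMIs in cells with the block in both libraries. Cells with no member held few, from 6 of Cdca3 to 35 of Hist1h2ae in the WT-labelled library. In the Fgd5-ko-labelled library they held from 8 of Hist1h2ap to 50 of Spc24. The 12 were picked as the largest ratios in these same cells. Their ratios and intervals are therefore those of selected extremes, not independent support. Of the first 12 by the same ranking at 8000 UMIs, Pclaf alone was among these. That ranking covered 3277 genes, against 1662 at 2000 UMIs. Most of its first 12 had 0 UMIs in WT-labelled cells with no member, so the ratio in the Fgd5-ko-labelled library alone set their place. There the cells with no member held few UMIs too, such as 1 of Esco2, the first in rank. The 2 rankings therefore do not show a change of companions with depth.

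Basal markers ran the other way. Of 10, 6 in the Fgd5-ko-labelled library and 8 in the WT-labelled library were lower in cells with the block, where 13.6% and 28% of genes were, and 0 were higher. Krt14, a basal keratin, was at 1402 CPM against 2602 CPM in cells without the block in the Fgd5-ko-labelled library, and at 808.9 against 2842 CPM in the WT-labelled library. Immediate early genes were lower in 4 and 8 of 10. Cdkn1a, the CDK inhibitor p21, was at 113.9 against 225.2 CPM in the Fgd5-ko-labelled library and 61.0 against 164.6 CPM in the WT-labelled library, whereas Cdkn1b, p27, was at 135.3 against 69.1 and 85.4 against 43.4. Of 12 tested genes of cell-cycle exit and CDK inhibition, 5 were higher and 1 lower in the Fgd5-ko-labelled library (15.9% and 13.6% of genes). In the WT-labelled library 5 were higher and 4 lower (26.4% and 28%). The fibroblast list summed to 324.2 against 203.8 CPM in the Fgd5-ko-labelled library and 296.7 against 157.7 CPM in the WT-labelled library. Of its tested genes in the Fgd5-ko-labelled library, 1 of 5 was higher by at least 1.5-fold and 0 were lower. In the WT-labelled library 1 of 7 was higher and 5 were lower. A gene could reach the UMI minimum through cells with no member alone. A lower call there can therefore rest on few or no UMIs in cells with the block. These calls do not show how most of the list behaved, and the 28% of all genes has the same limit. At 8000 UMIs, 2 genes of the fibroblast list were tested in the WT-labelled library, and 0 were lower. The luminal progenitor list summed to 41.3 against 27.4 CPM and 126.0 against 36.8 CPM. Only 3 of its 10 genes were tested in each library, and WT-labelled cells with the block held 31 of its UMIs. With 10 or more members at 8000 UMIs it summed to 35.7 against 18.0 CPM in the Fgd5-ko-labelled library. In the WT-labelled library it was then 51.8 against 43.0 CPM, a log2 ratio of 0.27 (-0.37 to 0.86). Cells with the block were also deeper before thinning than cells with none. The medians were 24709 against 14671 UMIs in the Fgd5-ko-labelled library and 9704 against 4901 in the WT-labelled library. Of the 654 Fgd5-ko-labelled cells with the block, 420 were in cluster 4. The parts of depth, cluster and other cell types in these differences were not tested.

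Cell classes differed in how many of their cells held the block. Clusters of basal-like cells built with the members left out ranged widely. Cluster 4 of the Fgd5-ko-labelled library, 433 cells, held 3 or more members in 97.0% and 9609 CPM of members. The other clusters of that library lay between 0.112% and 10.7%. Genes that rose with the block but are on none of the lists, such as Pclaf, Lockd and Diaph3, were not left out. The clusters are therefore not independent of the block. In the WT-labelled library the highest was cluster 17, at 9.88% of 800 cells, and the lowest cluster 12, at 1 of 1842. Outside the table, fibroblast-like barcodes held 3 or more members in 9 of 573 (1.57%, 0.721 to 2.96) in the Fgd5-ko-labelled library and 5 of 1020 (0.490%, 0.159 to 1.14) in the WT-labelled library, with median depths of 12725 and 6609 UMIs. Endothelial-like barcodes gave 3 of 331 (0.906%) and 3 of 1278 (0.235%), with medians of 7418 and 3399 UMIs. Both classes may hold dividing cells, and the part of free RNA in their counts was not tested. A member UMI was seen in 19.5% and 10.7% of fibroblast-like and in 26.9% and 21.8% of endothelial-like barcodes. In the WT-labelled library the 21.0% of basal-like cells with 1 or more is thus near the endothelial-like share and above the fibroblast-like share. Smc4 led there, at 82.2 and 47.8 CPM in endothelial-like barcodes, a gene seen above in cells with no other member.

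Luminal cells were few in both libraries. The listed hormone-sensing luminal-like cells held 3 or more members in 0 of 5 (0 to 52.2%) in the Fgd5-ko-labelled library, and in 6 of 53 (11.3%, 4.27 to 23.0) in the WT-labelled library. Listed luminal progenitor and alveolar-like cells gave 0 of 17 (0 to 19.5%) in the Fgd5-ko-labelled library and 6 of 109 (5.50%, 2.05 to 11.6) in the WT-labelled library. Beyond the table, hormone-sensing luminal-like barcodes of the WT-labelled library held the block in 20 of 60 (33.3%, 21.7 to 46.7), at a median of 18800 UMIs, with 3047 CPM of members, Cks2 at 334.2 and Ube2c at 303.0 CPM among them. Luminal progenitor and alveolar-like barcodes beyond the table held it in 1 of 5 (20%, 0.505 to 71.6) in the Fgd5-ko-labelled library and in 9 of 16 (56.3%, 29.9 to 80.2) in the WT-labelled library, where their members summed to 4747 CPM. Their median was 14690 UMIs in the WT-labelled library, and 12 of the 28 barcodes had under 2000 UMIs and were left out of the share. No basal-like set was matched to these luminal barcodes in depth.

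Barcodes above the highest UMI count of the authors' table were richer in members than the listed cells. Basal-like barcodes with more UMIs than any listed cell of their library numbered 217 in the Fgd5-ko-labelled library and 181 in the WT-labelled library, with medians of 46382 and 18261 UMIs. They held 3 or more members in 107 (49.3%, 42.5 to 56.2) and 47 (26.0%, 19.7 to 33.0), and summed to 3715 CPM (3678 to 3752) and 1874 CPM (1828 to 1920). With all basal-like barcodes outside the table added to the listed ones, the shares were 12.3% in the Fgd5-ko-labelled library and 2.57% in the WT-labelled library, and the median log2 ratio of the members was 2.09.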

How the data were processed

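The authors deposited UMI counts per gene and barcode for both libraries, with no normalization; the program version is Cell Ranger 3.1.0 per the file headers, while Seurat 3.0 and mm9 are named, without a role, in the submitters' processing notes. UMI counting removes amplification copies. A deposited table of barcodes with t-SNE coordinates, a score with no unit, was used only to list cells; each barcode suffix was given to the library that holds all of its barcodes. Other barcodes needed 1000 UMIs, 500 genes and no more than 15% of UMIs from mitochondrial genes.

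Counts were scaled to 10000 per cell and clustered with scanpy 1.11.5 and leidenalg 0.10.2 (2000 variable genes, 30 components, 15 neighbours, resolution 1), leaving out 189 member and cell-cycle genes. Clusters were named from 12 marker lists, by a margin of 0.75 on the log2 scale and at least 3 markers in 10% of cells; this scoring rule was set after the data were seen. Cells were thinned without replacement to fixed UMI numbers. A member is detected with 1 UMI; genes needed 20 UMIs, and 1.5-fold was the rule of size. Shares have Clopper-Pearson, CPM Poisson and ratios exact conditional intervals. The ratio and thinning code was tested on simulated data.

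The 12 members with the most UMIs are given in full, the rest by role; companions are the 12 largest of the smaller of both libraries' ratios. The members and lists were chosen with earlier results of these data known. Thinning to 8000 UMIs, the threshold of 10 members there, the ranges of 8000 to 12000 and 12000 to 16000 UMIs in the sums, the histone split, the count without 4 genes and the added barcodes were chosen after seeing the data. Other software was matplotlib 3.10.9, pandas 2.3.3, SciPy 1.17.1, NumPy 2.4.6 and Python 3.11.15. No doublets were removed.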

Additional observations from a re-analysis of the deposited data

How the results depend on the processing

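The median log2 ratio of the members, 2.53, was 2.29 to 2.63 under thinning to 2000 or 3500 UMIs, all listed cells, the other clustering, the other scaling, a minimum of 100 UMIs and a mitochondrial limit of 10%. It was 0.23 over cells of 4000 to 12000 UMIs, 0.76 at 8000 UMIs and 2.09 with basal-like barcodes outside the table, and reversed to -0.97 over cells of 8000 to 12000 UMIs and -1.14 over those of 12000 to 16000; the cause was not tested. The share of basal-like cells with 3 or more members (10.8% in the Fgd5-ko-labelled library, 1.95% in the WT-labelled library) was 9.69% at 1500 UMIs in the first, 13.4% and 2.81% at 3500 UMIs, 41.8% and 4.62% unthinned, 15.2% and 3.87% for 2 or more members and 8.36% and 1.37% for 5 or more. It was 2.29% and 1.75% over cells of 4000 to 12000 UMIs, 12.3% and 2.57% with barcodes outside the table, 9.70% in the Fgd5-ko-labelled library without the 4 loosely tied genes, and 7.39% in the WT-labelled library for 10 or more members at 8000 UMIs. The 10 other draws gave 10.6% to 10.98% and 1.76% to 1.97%. Top2a cells held another member in 97.2% unthinned in the Fgd5-ko-labelled library. Over 4000 to 12000 UMIs it was 14 of 24 cells (58.3%, 36.6 to 77.9) in that library and 30 of 48 (62.5%, 47.4 to 76.0) in the WT-labelled library. Cenpf cells held another member in 93.7% and 86.8%. For Top2a the other draws gave 84.1% to 88.7% and 56.5% to 71.4%. The deepest bin, 31.3% and 15.1%, was 27.6% and 6.10% as the deepest of 4 equal groups. Named listed cells other than basal-like held 3 or more members in 0% and 7.41%, and over all barcodes in 1.41% and 1.86%. No paired analysis was possible because each group has 1 library. With 1 library per group, no difference could be set against a spread between replicates; intervals cover counting error only, and shares of small classes, such as 0 of 17 cells, are limited by their number of cells.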
